A study of Homo sapiens with 15 samples.

Results

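The genes described here are 57 genes that cells use to pass from G2 through mitosis, measured in immortalized human astrocytes with and without doxycycline, which the series' design text gives as the inducer of mutant IDH1. They are a list of names drawn up by function, with earlier results of these data known, and no cutoff on a measured value chose them. The list holds 11 mitotic kinesins, 5 spindle checkpoint genes, 4 genes of the anaphase-promoting complex or cyclosome (APC/C) pathway, 12 genes for CDK1, its cyclins and its regulators, 6 kinetochore genes, 5 chromosomal passenger and Aurora kinase genes, 4 cytokinesis genes, 5 spindle assembly genes, 3 genes of chromosome structure and proliferation, and 2 transcription factors. Of the 16324 genes listed in either count table, these 57 were all listed and tested in the table of untreated and day 7 libraries. In the table that also has day 3, 56 were listed and 55 tested: KIF20B was not listed there, and TTK was listed with too few counts to be tested.

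Entry into mitosis is driven by CDK1 bound to cyclin A or cyclin B. WEE1 and PKMYT1 hold the kinase inactive by phosphorylation, and the CDC25 phosphatases release it. Kinesins and microtubule-binding proteins build the spindle, the spindle checkpoint (BUB1, BUB1B, BUB3, MAD2L1, TTK) delays anaphase until kinetochores are attached, and CDC20 then activates the APC/C, a ubiquitin ligase that destroys cyclin B and securin. Much of this set is repressed in resting cells by the DREAM complex and transcribed in G2 by MYBL2 and FOXM1. In bulk RNA, fewer cells in G2 or mitosis and less RNA per such cell cannot be told apart.

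The libraries were made with a bulk form of MARS-seq, a 3′-end method that counts RNA molecules by unique molecular identifiers (UMIs). All cells came from 1 established fetal line immortalized with SV40, and each sample's genotype label reads WT IDH1. The series' design text names IDH1-R132H as the form induced, and the treatment was doxycycline at 1 µg/ml. There were 6 untreated libraries, 3 of batch b1 and 3 of batch b2, 4 libraries at day 3 (all b2) and 5 at day 7 (1 of b1 and 4 of b2). No group received doxycycline without the inducible gene, and untreated cells carry no day label, so the drug, time in culture and mutant IDH1 cannot be told apart. The labels do not say whether libraries came from separate cultures, so p-values measure the spread between these libraries, which may be technical. The batch tags b1 and b2 are not explained in the labels.

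Library totals ran from 2573290 to 5567651 UMIs in the table of untreated and day 7 libraries, and from 1816599 to 4656705 in the other. IDH1, whose mutant form is the one induced, did not pass the test at day 7 (log2 change 0.22 ± 0.11 (SE), edgeR adjusted p = 0.178) or at day 3 (0.21 ± 0.14, edgeR adjusted p = 0.494). The counts are per gene and do not part the induced form from the cells' own IDH1. Whether the induced transcript is counted at all is not stated, so these values do not measure the induction. Of 12 astrocyte markers, 8 were listed in the table of untreated and day 7 libraries, and the defining markers GFAP, AQP4, ALDH1L1 and SLC1A2 were listed in neither table. The 8 summed to 411 to 433 CPM (UMIs per 1000000) in untreated b1, 322 in the b1 day 7 library, 264 to 286 in untreated b2 and 264 to 276 at day 7 of b2. The 5 listed of 7 fibroblast and pericyte markers (DCN and LUM were not listed) summed to 990 to 1070 CPM in untreated b1, 989 in the b1 day 7 library, 835 to 881 in untreated b2 and 446 to 649 at day 7 of b2. Among them COL1A2 went from 306 to 336 CPM in untreated b2 to 80.5 to 90.5 at day 7. THY1 was also called lower at day 7 over both batches (log2 change -0.40 ± 0.12 (SE), edgeR adjusted p = 0.0362). Of the astrocyte markers, SOX9 was called higher at day 7 (0.64 ± 0.15 (SE), edgeR adjusted p = 0.00518), and ALDOC (-0.83) and CLU (-0.32) lower. The SOX9 change was 0.85 ± 0.14 (SE) within b2 and 0.04 within b1. In the table with day 3, the 3 listed of 6 neuronal markers summed to 77.9 to 91.5 CPM untreated, 119 to 134 at day 3 and 106 to 169 at day 7. Most of this sum was the neuronal tubulin TUBB3, called higher at day 3 (log2 change 0.72 ± 0.16 (SE), edgeR adjusted p = 0.0297). SNAP25 had -0.35 at day 3 and did not pass. In the table of untreated and day 7 libraries, SYT1, SNAP25 and MAP2 were listed and TUBB3 was not. Their sum was 12.0 to 13.9 CPM in untreated b1 and 10.7 in the b1 day 7 library. In b2 it was 14.9 to 17.2 CPM untreated and 11.5 to 14.7 at day 7. The 5 listed of 7 keratinocyte and epithelial markers (KRT5 and CDH1 were not listed) summed to 1037 to 1085 CPM in untreated b1, 754 in the b1 day 7 library, 659 to 691 in untreated b2 and 606 to 653 at day 7 of b2. Among the epithelial markers, KRT19 (-0.93) and KRT8 (-0.29) were called lower at day 7. The 2 listed of 6 microglial markers summed to between 0.726 and 6.36 CPM, and CSF1R, at few UMIs, was called higher at day 7 (1.51 ± 0.41 (SE), edgeR adjusted p = 0.0144). The 1 listed of 4 oligodendrocyte markers, MBP, was called lower at day 7 (-0.44 ± 0.14 (SE), edgeR adjusted p = 0.0310). The part of other cell types in the results was not tested.

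The promoters of these genes are shown first because the motifs through which DREAM, MYBL2 and NF-Y are known to act on this set can be read in them. Of the 57 genes, 47 had a promoter in the RefSeq table used here (GRCh38.p14, 250 bases before and 50 bases from the start). Only the first listed start of each gene was read, and any other starts were not searched. The motif TTTGAA, the core of the cell cycle genes homology region, was present on either strand in 35 of the 47 (74.5%), against 15.4% of all 27305 promoters. CCAAT, the NF-Y motif, was present on either strand in 37 of 47 (78.7%), against 35.7% of all promoters, and both motifs in 30 of 47 (63.8%), against 6.08%. In the 150 bases before the start alone, 21 of the 47 held TTTGAA (44.7%, against 7.44%) and 35 held CCAAT (74.5%, against 24.4%). These shares describe letters in fixed windows and are not evidence of binding. The 150 bases before the start follow for 7 genes that carry the expression results, 5′ to 3′ on the coding strand, with TTTGAA and CCAAT in capitals, the second written ATTGG where it lies on the other strand. They lie at chr15:59104996-59105145 for CCNB2, chr15:69414199-69414348 for KIF23, chr10:128126424-128126573 for MKI67 (minus strand), chr1:43358831-43358980 for CDC20, chr16:23678739-23678888 for PLK1, chr5:138178962-138179111 for KIF20A and chr20:43666964-43667113 for MYBL2, all but MKI67 on the plus strand.
CCNB2: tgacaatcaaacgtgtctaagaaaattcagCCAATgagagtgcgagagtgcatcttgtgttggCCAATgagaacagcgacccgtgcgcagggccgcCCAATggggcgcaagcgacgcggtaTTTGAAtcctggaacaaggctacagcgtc
KIF23: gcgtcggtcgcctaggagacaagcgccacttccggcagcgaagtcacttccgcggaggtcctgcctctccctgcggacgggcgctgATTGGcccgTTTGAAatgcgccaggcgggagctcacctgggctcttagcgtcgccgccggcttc
MKI67: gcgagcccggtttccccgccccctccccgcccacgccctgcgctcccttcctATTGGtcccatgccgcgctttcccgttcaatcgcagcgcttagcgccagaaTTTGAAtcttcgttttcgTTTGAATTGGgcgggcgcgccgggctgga
CDC20: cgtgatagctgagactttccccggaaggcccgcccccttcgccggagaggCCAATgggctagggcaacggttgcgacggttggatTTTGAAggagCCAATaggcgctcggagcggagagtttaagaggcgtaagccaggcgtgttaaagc
PLK1: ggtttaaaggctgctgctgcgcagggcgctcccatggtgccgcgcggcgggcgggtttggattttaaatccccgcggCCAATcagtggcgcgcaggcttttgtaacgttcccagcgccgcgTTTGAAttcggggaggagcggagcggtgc
KIF20A: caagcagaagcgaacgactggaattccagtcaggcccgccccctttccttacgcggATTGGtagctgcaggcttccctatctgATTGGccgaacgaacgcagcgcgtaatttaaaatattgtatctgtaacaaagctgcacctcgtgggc
MYBL2: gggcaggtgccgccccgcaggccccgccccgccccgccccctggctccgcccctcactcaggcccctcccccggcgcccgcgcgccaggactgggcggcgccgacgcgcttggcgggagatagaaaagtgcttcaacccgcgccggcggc
CCNB2, KIF23, MKI67, CDC20 and PLK1 hold both motifs in this stretch. In MKI67 the second TTTGAA shares its last base with an ATTGG. KIF20A holds 2 CCAAT motifs and no TTTGAA, and MYBL2 holds neither. The 7 genes shown were picked with their values known. Of those with both motifs, CCNB2, KIF23 and MKI67 fell at day 7, and CDC20 and PLK1 rose. CDC25C, not shown, held neither motif in the whole window of its first listed start and also fell. Motifs at any other start of this gene were not searched. The part of the motifs in these changes was not tested.

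The 57 genes were among the better measured ones. Their median level was 84.5 CPM (UMIs of a gene per 1000000 UMIs of its library, after scaling of library sizes) against 24.6 CPM over the 12449 genes tested, and the median standard error of their day 7 log2 change was 0.09 against 0.13. Their share of calls is therefore not like for like with the share over all genes. Together they took 0.733% to 0.776% of UMIs in the 3 untreated b2 libraries and 0.668% to 0.699% in the 4 day 7 b2 libraries. In b1 they took 0.679% to 0.706% in the 3 untreated libraries and 0.597% in the single day 7 library. These are shares of total UMIs, without the scaling used for CPM, and the day 7 shares lay below the untreated ones in both batches. The scaling factors were 1.03 to 1.05 in untreated b2 and 0.968 to 1.03 in day 7 b2, so scaling narrows the gap. In the table with day 3, whose counts of the same libraries differ, the shares were 0.798% to 0.848% untreated, 0.809% to 0.847% at day 3 and 0.755% to 0.776% at day 7. There the day 7 library b2-17 had a factor of 0.951, and with scaling the untreated and day 7 groups overlap.

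The first comparison, day 7 of doxycycline against no doxycycline over both batches, is the one the series names. Some kinesins, CDK1 regulators and genes of the spindle, midzone and chromosomes fell, CDC20 and PLK1 rose, and 43 of the 57 did not pass the test. Of 57 genes, 12 passed the test as lower (21.1%, against 7.28% of all genes tested) and 2 as higher (3.51%, against 8.43%), at an edgeR adjusted p under 0.05. The median log2 change was -0.12, against -0.02 over all genes, and 46 of the 57 were negative, against 53% of all genes. The called changes were small, and that of NUSAP1, at -0.58 on the log2 scale, was the largest of the 14. The count of lower genes was 7 without the untreated library b2-1 or b2-4, 7 in b2 alone with either table's counts, and 1 (WEE1) in a fit with no batch term, where none of the 57 was called higher.

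**Figure D1:**
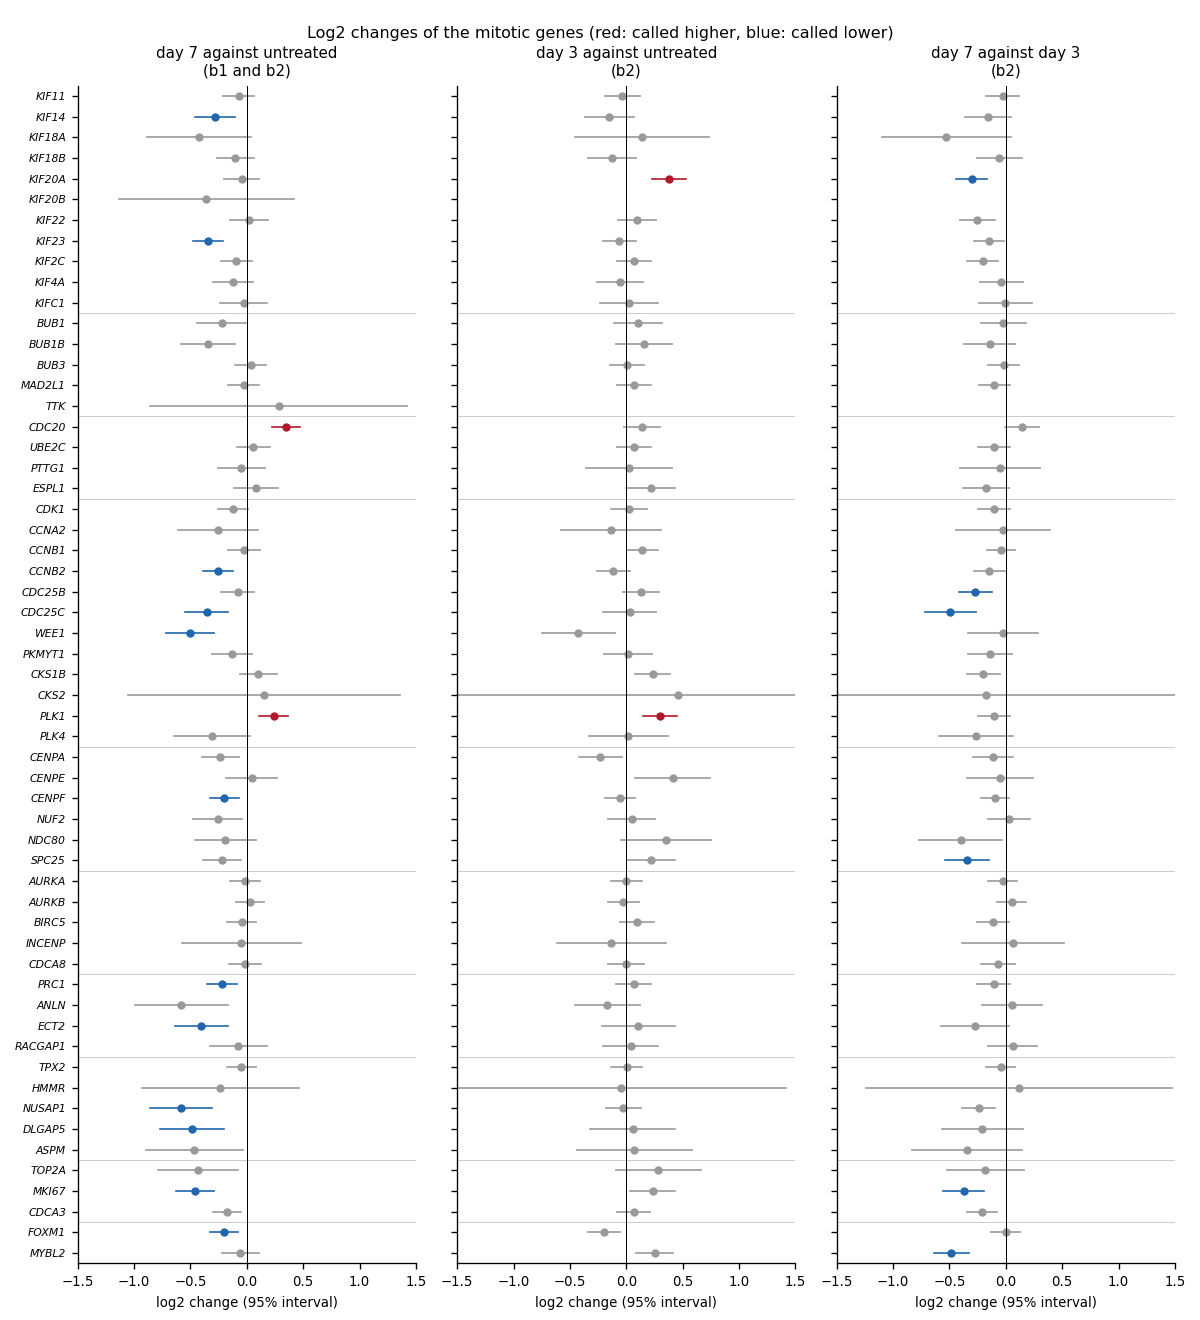
Log2 changes (x axis) of the 57 genes (y axis, grouped by role, grey lines between groups) at day 7 against untreated, at day 3 against untreated and at day 7 against day 3, with 95% intervals cut at the panel edge; red genes were called higher and blue genes lower. The left panel has 12 blue and 2 red genes, the middle 2 red, and the right 6 blue.

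In the APC/C pathway, 1 of 4 genes rose and none fell. CDC20, the activator that brings substrates to the APC/C in mitosis, stood at 322, 287 and 299 CPM in untreated b1 and 409 in day 7 of b1, and 233, 252 and 239 in untreated b2 and 313, 310.3, 287 and 286 in day 7 of b2. The day 7 libraries lay above all untreated ones of their own batch. Its log2 change was 0.35 ± 0.06 (SE), edgeR adjusted p = 0.000670. It was called without any 1 library, with a highest adjusted p of 0.00456 from edgeR, and lost the call in the fit with no batch term (edgeR adjusted p = 0.356). The ubiquitin-conjugating enzyme UBE2C (log2 change 0.06), the securin PTTG1 (-0.05) and separase, ESPL1 (0.08), did not pass.

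Of the 12 genes for CDK1, its cyclins and regulators, 1 rose and 3 fell. PLK1, the polo kinase that promotes mitotic entry, stood at 146, 147 and 144 CPM in untreated b1 and 188 in day 7 of b1, and 148, 143 and 146 in untreated b2 and 175, 163, 152 and 174 in day 7 of b2. Here too the day 7 libraries lay above the untreated ones in both batches. Its log2 change was 0.24 ± 0.07 (SE), edgeR adjusted p = 0.0184, and it did not pass without the library b1-13 (edgeR adjusted p = 0.0653). CCNB2, cyclin B2, stood at 202, 189 and 196 CPM in untreated b1 and 159 in day 7 of b1, and 219, 226 and 198 in untreated b2 and 169, 181, 192 and 187 in day 7 of b2. The groups did not overlap in either batch, and the log2 change was -0.25 ± 0.07 (SE), edgeR adjusted p = 0.0109 (0.0509 without b2-2). CDC25C (chr5:138285265-138338355, minus strand), a phosphatase that activates CDK1, stood at 59.4, 57.5 and 55.3 CPM in untreated b1 and 52.1 in day 7 of b1, and 36.8, 42 and 43.1 in untreated b2 and 30.1, 33.6, 27.3 and 28.2 in day 7 of b2. It was below untreated in both batches, and the log2 change was -0.36 ± 0.10 (SE), edgeR adjusted p = 0.0131 (0.0604 without b2-2).

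WEE1 (chr11:9573681-9593457, plus strand), the kinase that inhibits CDK1, also fell, so an activator and an inhibitor of CDK1 moved the same way. It stood at 31, 29.5 and 28.1 CPM in untreated b1 and 23.9 in day 7 of b1, and 35.6, 32.5 and 26.9 in untreated b2 and 20.5, 22.7, 21.9 and 21.1 in day 7 of b2, and its log2 change was -0.50 ± 0.11 (SE), edgeR adjusted p = 0.00306. CDK1 itself stood at 174, 188 and 187 CPM in untreated b1 and 158 in day 7 of b1, and 176, 168 and 152 in untreated b2 and 153, 161, 156 and 155 in day 7 of b2. It was lower in the b1 day 7 library and overlapped in b2, and did not pass (log2 change -0.12 ± 0.07 (SE), edgeR adjusted p = 0.234). Cyclin B1, CCNB1, stood at 387, 380.5 and 380.1 CPM in untreated b1 and 314 in day 7 of b1, and 392, 345 and 359.8 in untreated b2 and 414, 363, 365 and 406 in day 7 of b2. It was lower in b1 alone and did not pass (log2 change -0.02). CDC25B, the other CDC25 measured here, did not pass at day 7 (-0.08). The remaining 5, CCNA2, PKMYT1, PLK4, CKS1B and CKS2, did not pass either, with log2 changes from -0.31 (PLK4) to 0.15 (CKS2).

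Among the 11 kinesins, 2 fell and none rose. KIF23, the motor subunit of centralspindlin in the midzone, stood at 187, 175 and 189 CPM in untreated b1 and 137 in day 7 of b1, and 243, 227 and 226 in untreated b2 and 183, 192, 205 and 169 in day 7 of b2. All day 7 libraries lay below the untreated ones of their batch. The log2 change was -0.34 ± 0.07 (SE), edgeR adjusted p = 0.00160, and the call was kept without any 1 library. KIF14, a kinesin of cytokinesis, stood at 50.6, 45.1 and 48.6 CPM in untreated b1 and 40.9 in day 7 of b1, and 61.5, 57.8 and 69.7 in untreated b2 and 57.6, 46.5, 50.8 and 49.2 in day 7 of b2. Its lowest untreated and highest day 7 libraries of b2 were nearly level. The log2 change was -0.28 ± 0.09 (SE), edgeR adjusted p = 0.0346, and the call was lost without any of 6 libraries (untreated b1-1, b2-1 and b2-4 and day 7 b2-18, b2-19 and b2-20, edgeR adjusted p up to 0.135) and with DESeq2 (adjusted p = 0.0604). KIF11, the motor that separates the spindle poles, stood at 90.9, 95.2 and 94.2 CPM in untreated b1 and 85.1 in day 7 of b1, and 96.1, 93.9 and 98.4 in untreated b2 and 89.1, 90.8, 91.5 and 99.9 in day 7 of b2, overlapped in b2 and did not pass (log2 change -0.07 ± 0.07). The other 8 kinesins did not pass, with log2 changes from -0.42 (KIF18A) to 0.02 (KIF22).

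In the spindle checkpoint no gene of 5 was called at day 7 by edgeR, DESeq2 or limma-voom, and 1 had an unadjusted edgeR p under 0.05. That gene was BUB1B, which encodes the checkpoint protein BUBR1. BUB1B stood at 32, 34.6 and 35.8 CPM in untreated b1 and 15.5 in day 7 of b1, and 59.3, 53 and 56 in untreated b2 and 44.3, 45.7, 52.5 and 55.4 in day 7 of b2, where the b1 day 7 library was low and the b2 groups overlapped (log2 change -0.35 ± 0.12 (SE), edgeR adjusted p = 0.0556). Of 6 kinetochore genes, 1 fell. CENPF, a large kinetochore-associated protein, stood at 211, 242 and 233 CPM in untreated b1 and 209 in day 7 of b1, and 249, 259.9 and 258 in untreated b2 and 223, 224, 225 and 202 in day 7 of b2, without overlap in either batch. Its log2 change was -0.20 ± 0.06 (SE), edgeR adjusted p = 0.0371, and it did not pass without any of 9 libraries, all but b1-1 and b1-13 (edgeR adjusted p up to 0.105). Among the 5 chromosomal passenger and Aurora genes (AURKA, AURKB, BIRC5, INCENP, CDCA8) none was called by the 3 tools, and none had an unadjusted edgeR p under 0.05. Their log2 changes lay between -0.05 (INCENP) and 0.03 (AURKB).

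Of the 4 cytokinesis and midzone genes, 2 fell. PRC1, which bundles midzone microtubules, stood at 123, 133 and 117 CPM in untreated b1 and 111 in day 7 of b1, and 203, 209.6 and 210.4 in untreated b2 and 190.4, 166, 175 and 169 in day 7 of b2 (log2 change -0.22 ± 0.07 (SE), edgeR adjusted p = 0.0271). Its groups did not overlap, but the call was lost without any of 6 libraries (b1-2, b2-1, b2-2, b2-4, b2-18 and b2-20, edgeR adjusted p up to 0.0770). ECT2, which activates RHOA at the division site, stood at 39.8, 42 and 46.2 CPM in untreated b1 and 23.9 in day 7 of b1, and 58.1, 44 and 53.9 in untreated b2 and 34.1, 44.2, 49.2 and 41.4 in day 7 of b2 (log2 change -0.40 ± 0.12 (SE), edgeR adjusted p = 0.0237). The b1 day 7 library was the lowest of all, the b2 groups overlapped, and the call was lost without any 1 of b1-13, b2-1, b2-4 and b2-17 (up to 0.141 from edgeR). ANLN and RACGAP1 did not pass over both batches and differed between them, as described further on.

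Of the 5 spindle assembly genes, 2 fell. NUSAP1 (chr15:41332694-41381050, plus strand), which binds and stabilizes spindle microtubules, stood at 16.9, 25.3 and 17.5 CPM in untreated b1 and 8.75 in day 7 of b1, and 107, 92.4 and 75.8 in untreated b2 and 66.4, 74.1, 70.1 and 49.6 in day 7 of b2. The day 7 libraries lay below the untreated ones in both batches, although the batches themselves were far apart. The log2 change was -0.58 ± 0.14 (SE), edgeR adjusted p = 0.00917, and the call was kept without any 1 library (edgeR adjusted p up to 0.0473). DLGAP5, a stabilizer of kinetochore fibres, stood at 23.9, 22.5 and 24.8 CPM in untreated b1 and 11.1 in day 7 of b1, and 29.5, 24.2 and 18.3 in untreated b2 and 17.9, 18.1, 20.5 and 20.7 in day 7 of b2. The b2 groups overlapped, and the log2 change of -0.49 ± 0.14 (SE), edgeR adjusted p = 0.0234 lost its call without b1-13 or b2-1 (up to 0.141). TPX2, HMMR and ASPM did not pass, with log2 changes of -0.05, -0.23 and -0.47.

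MKI67, the Ki-67 protein that coats mitotic chromosomes and marks proliferating cells, stood at 109.7, 149.6 and 135 CPM in untreated b1 and 95.4 in day 7 of b1, and 258, 256 and 259 in untreated b2 and 164, 195, 219 and 169 in day 7 of b2. No day 7 library reached the untreated libraries of its own batch. The log2 change was -0.46 ± 0.09 (SE), edgeR adjusted p = 0.000951, and the call was kept without any 1 library, but not with the other table's counts, as given below. TOP2A, the topoisomerase that untangles sister chromosomes, stood at 46.2, 56.3 and 48.4 CPM in untreated b1 and 18.3 in day 7 of b1, and 90, 81.7 and 79 in untreated b2 and 64.5, 81.6, 84.9 and 58.5 in day 7 of b2 and did not pass (log2 change -0.43 ± 0.18 (SE), edgeR adjusted p = 0.133). FOXM1, the transcription factor of many G2 genes, stood at 217, 220.0 and 218 CPM in untreated b1 and 186 in day 7 of b1, and 197, 198 and 222 in untreated b2 and 187, 172, 182 and 179 in day 7 of b2. Its groups did not overlap in either batch and it fell (log2 change -0.20 ± 0.06 (SE), edgeR adjusted p = 0.0351), but the call was lost without any of 9 libraries, all but b2-1 and b2-17 (edgeR adjusted p up to 0.139). MYBL2 did not pass over both batches (-0.06): it was 168, 152 and 168 CPM in untreated b1 and 199 at day 7, and 126, 129 and 128 in untreated b2 and 115, 119, 101 and 106 at day 7.

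**Figure D2:**
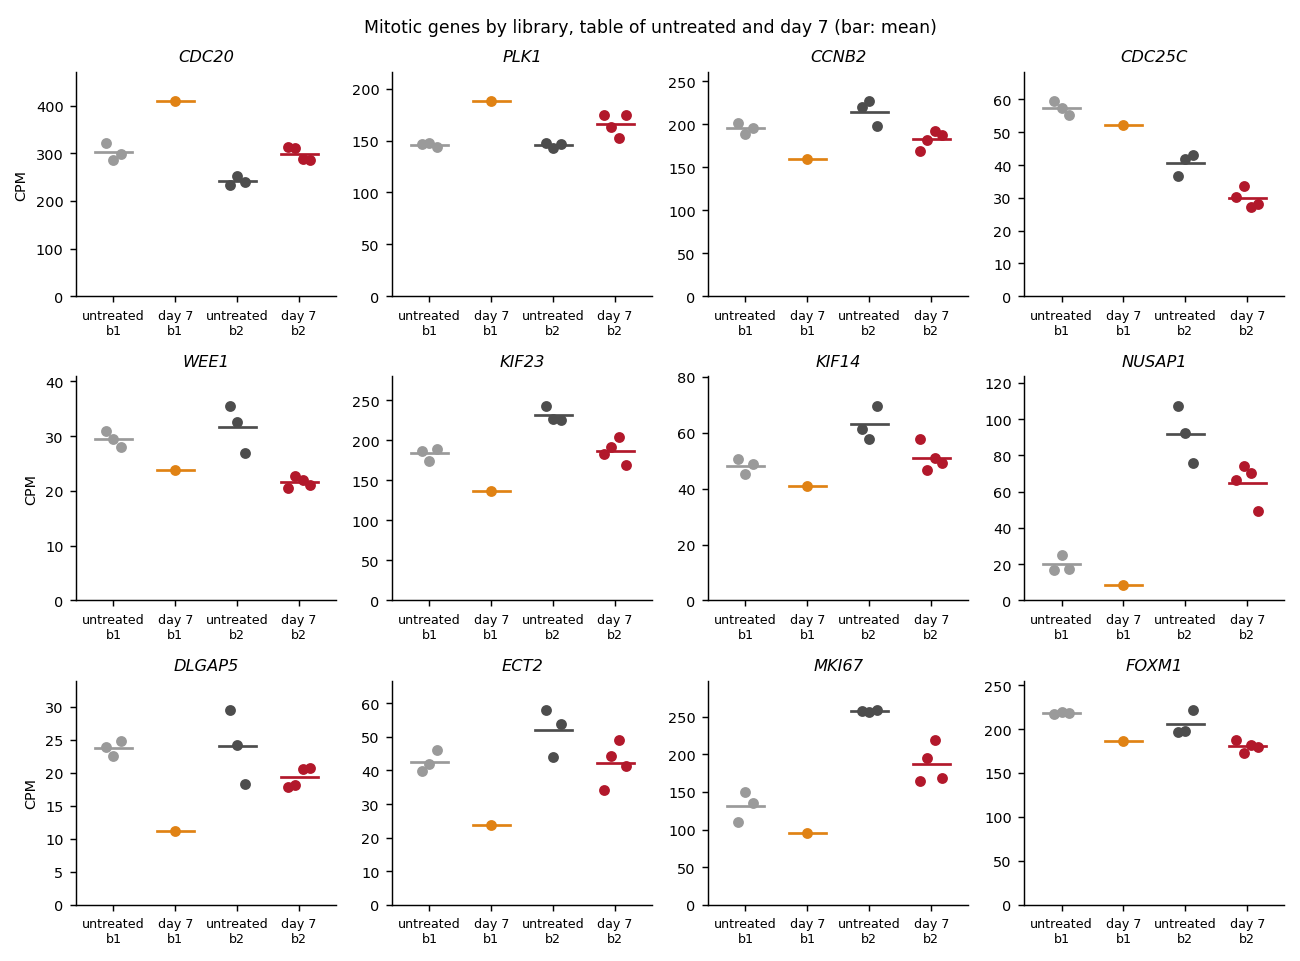
CPM per library (y axis, from 0) of 12 genes in untreated and day 7 libraries of b1 and b2 (x axis); each point is 1 library and each bar the mean of its group. CDC20 and PLK1 lie higher at day 7 in both batches, and KIF23, WEE1 and MKI67 lie lower in both.

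Whether the day 7 difference was the same in both batches was tested as an interaction, with 1 day 7 library (b1-13) in b1. There were 5 genes that differed, each lower in that library than the b2 change would give, which is 8.77% of the 57 against 1.52% of all genes tested in that direction. No gene was called in the other direction by edgeR, DESeq2 or limma-voom (1.12% of all genes), 2 had an unadjusted edgeR p under 0.05, and with RLE size factors 4 were called in the first direction and 2 in the other. ANLN, the anillin scaffold of the contractile ring, had log2 changes of -1.84 ± 0.23 in b1 and -0.33 ± 0.10 in b2, from 59.1, 82.4 and 66.6 CPM in untreated b1 and 19.1 in day 7 of b1, and 169, 150.02 and 143 in untreated b2 and 107, 132, 133 and 119 in day 7 of b2. The difference was 1.52 ± 0.25 (SE), edgeR adjusted p = 0.000934. TOP2A had -1.45 ± 0.25 in b1 and -0.21 ± 0.11 in b2 (difference 1.24 ± 0.28 (SE), edgeR adjusted p = 0.0151). For the checkpoint kinase BUB1 the changes were -0.87 ± 0.16 and -0.01 ± 0.09 (difference 0.86 ± 0.18 (SE), edgeR adjusted p = 0.00729).

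BUB1 stood at 73.8, 73.4 and 81.4 CPM in untreated b1 and 41.7 in day 7 of b1, and 78.6, 74.1 and 71.8 in untreated b2 and 71.7, 69.5, 79.2 and 76.3 in day 7 of b2, so the day 7 library of b1 alone was low. BUB1B had log2 changes of -1.14 ± 0.22 in b1 and -0.17 ± 0.10 in b2 (difference 0.97 ± 0.25 (SE), edgeR adjusted p = 0.0305). RACGAP1, the partner of KIF23 in centralspindlin, stood at 76.5, 64.1 and 73.4 CPM in untreated b1 and 44.9 in day 7 of b1, and 83, 59.4 and 70.4 in untreated b2 and 84.3, 80.4, 75.2 and 68.1 in day 7 of b2, with changes of -0.68 ± 0.19 and 0.12 ± 0.11 (difference 0.80 ± 0.22 (SE), edgeR adjusted p = 0.0447). The BUB1B difference lost its call without any 1 of b1-2, b1-3, b2-2, b2-4 and b2-19 (up to 0.0756 from edgeR) and that of RACGAP1 without b1-1, b1-3, b2-2, b2-4, b2-18 or b2-19 (up to 0.105). DESeq2 called 3 of these 5 (not BUB1B or RACGAP1) and limma-voom 2 (ANLN and BUB1). The library b1-13 had the lowest scaling factor of its table (0.908), and a difference between batches cannot be told apart from a trait of this 1 library. Within b2, 11 of the 57 genes fell (against 7.94% of all genes tested) and 1 rose (CDC20, against 7.74%), by edgeR. Within b1, 9 fell (against 3.66%) and 2 rose (CDC20 and PLK1, against 3.85%). Both within-batch counts come from the fit that shares 1 estimate of spread over all 4 groups, so the lone b1 library is assumed to vary like the others. A fit of the b2 libraries alone, with their own spread, called fewer genes lower, as given above.

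**Figure D3:**
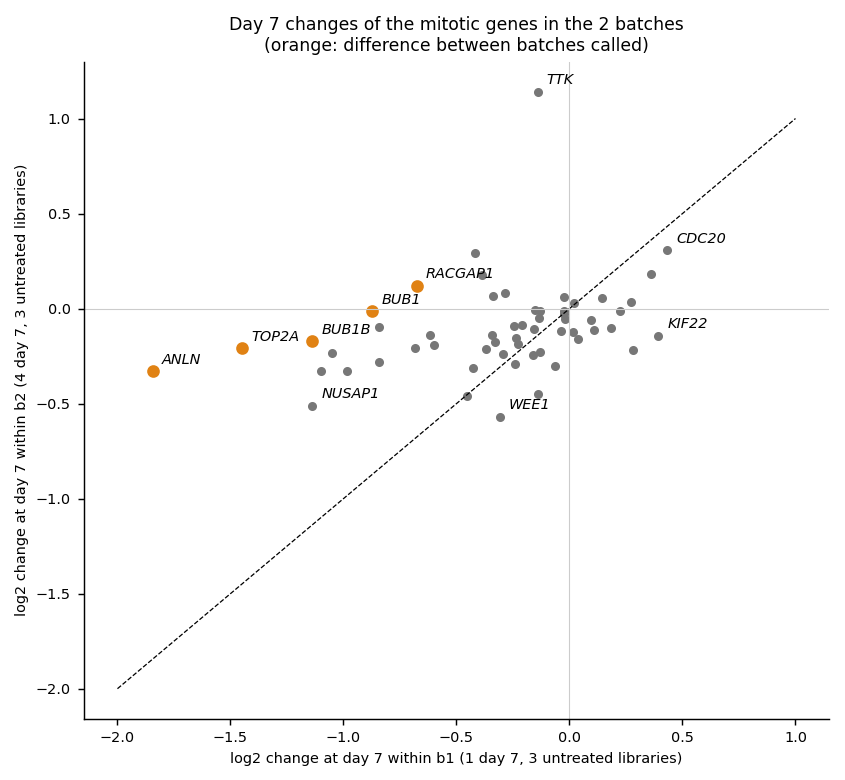
Log2 change at day 7 within b1 (x axis, 1 day 7 against 3 untreated libraries) and within b2 (y axis, 4 against 3) for each of the 57 genes; the dashed line marks equal change. The 5 orange genes, whose difference between batches was called, lie left of the line, from ANLN (-1.84 in b1) to RACGAP1 (-0.68 in b1).

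Day 3 was measured in b2 alone and compared with the 3 untreated b2 libraries in the table that holds day 3. A kinesin and a kinase were higher, and no gene of the list was called lower. Of 55 genes tested, 2 rose (3.64%, against 1.84% of all genes tested) and 0 fell (against 1.67%). DESeq2 and limma-voom also called 0 lower, and 7 genes had an unadjusted edgeR p under 0.05 as higher and 3 as lower. The median log2 change was 0.05, against 0.00 over all genes. KIF20A (chr5:138178719-138187715, plus strand), a kinesin that carries the passenger complex to the midzone, stood at 182, 166 and 177 CPM untreated, 238, 244, 214 and 213 at day 3 and 199.7, 188, 171 and 179 at day 7. Every day 3 library lay above every untreated one, and the log2 change was 0.38 ± 0.08 (SE), edgeR adjusted p = 0.00356. The call was kept without any 1 library (up to 0.0457).

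PLK1 stood at 188, 177 and 180.3 CPM untreated, 216, 216, 210.2 and 251 at day 3 and 225, 202, 192 and 213 at day 7 in this table. The day 3 libraries lay above the untreated ones, and the log2 change was 0.30 ± 0.08 (SE), edgeR adjusted p = 0.0281. Leaving out any 1 of b2-1, b2-2, b2-4, b2-10 and b2-12 ended the call, with an adjusted p of up to 0.137 from edgeR. The columns of 2 untreated libraries carry names that b1 samples share. Their CDC20 UMIs, 975 and 1409, were close to those of b2-1 and b2-2 in the other table (963 and 1388). There b1-1 and b1-2 had 1317 and 738. Their CKS2 UMIs, 445 and 236, were likewise close to b2-1 and b2-2 (451 and 245), with 155 and 97 in b1-1 and b1-2. The 2 columns were taken as b2-1 and b2-2. Without both, no gene of the 55 was called higher, with 1 untreated library left. WEE1 had a log2 change of -0.43 at day 3 and did not pass (edgeR adjusted p = 0.162), from 32, 27.5 and 23 CPM untreated, 14, 21.5, 26.9 and 19.3 at day 3 and 19.1, 21.5, 21.2 and 19.5 at day 7. FOXM1 (-0.20, edgeR adjusted p = 0.128) and MYBL2 (0.25, edgeR adjusted p = 0.101) did not pass either.

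From day 3 to day 7, 6 of 55 genes fell (10.9%, against 2.31% of all genes tested). None rose (against 2.76% of all genes) by edgeR, DESeq2 or limma-voom, and none had an unadjusted edgeR p under 0.05 as higher. The median log2 change was -0.11, against 0.01 over all genes, and 47 of 55 were negative. This comparison shares its day 3 libraries with the one before, so a gene high at day 3 enters both, and the 2 comparisons with untreated b2 share those libraries. MYBL2, the activator subunit that binds the MuvB core in S and G2 phase, stood at 156, 161 and 156 CPM untreated, 163, 199.7, 181 and 204 at day 3 and 144, 147, 124 and 124 at day 7. All day 7 libraries lay below all others, and the log2 change of -0.49 ± 0.08 (SE), edgeR adjusted p = 0.000147, was called without any 1 library.

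CDC25C stood at 44.2, 51.1 and 51.2 CPM untreated, 60.7, 41.2, 50.3 and 49.6 at day 3 and 35.6, 40.5, 32.8 and 33.8 at day 7, with day 7 below every other library. Its log2 change was -0.49 ± 0.11 (SE), edgeR adjusted p = 0.00826, and it was called without any 1 library (up to 0.0496). CDC25B (chr20:3786772-3806121, plus strand), which starts CDK1 activation at the centrosome, stood at 169.6, 192 and 201 CPM untreated, 223, 213, 207 and 179 at day 3 and 161, 168, 177 and 175 at day 7. The highest day 7 and lowest day 3 libraries were nearly level, and the log2 change of -0.27 ± 0.07 (SE), edgeR adjusted p = 0.0304, was lost without b2-9, b2-10, b2-11 or b2-18 (up to 0.118) and with limma-voom (adjusted p = 0.0550). KIF20A was lower at day 7 than at day 3, where it had been high (log2 change -0.30 ± 0.07 (SE), edgeR adjusted p = 0.00835). SPC25 (chr2:168834132-168913371, minus strand), a subunit of the NDC80 complex that ties kinetochores to microtubules, stood at 58.4, 57.3 and 60.7 CPM untreated, 56.7, 79.8, 71 and 63.8 at day 3 and 50.8, 55.8, 55.8 and 52.7 at day 7. Its log2 change was -0.34 ± 0.10 (SE), edgeR adjusted p = 0.0354, lost without b2-10, b2-11, b2-18 or b2-20 (up to 0.192) and with DESeq2 (adjusted p = 0.0662) and limma-voom (0.0508).

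MKI67 stood at 110.3, 97.9 and 92.8 CPM untreated, 137, 119, 119 and 100.4 at day 3 and 81.2, 85.2, 95 and 102 at day 7 in this table, where the day 3 and day 7 groups overlapped by 1 library. Its log2 change from day 3 to day 7 was -0.37 ± 0.09 (SE), edgeR adjusted p = 0.0135, and 0.0759 was the adjusted p without b2-9. In contrast to MYBL2, the factor FOXM1 had a log2 change of 0.00 over this interval, from 235, 236 and 263 CPM untreated, 226, 209.5, 206 and 212 at day 3 and 225, 206, 215 and 206 at day 7. CDC20 stood at 289, 313 and 289.6 CPM untreated, 293, 361, 288 and 367 at day 3 and 384, 378, 352 and 337 at day 7 and did not pass from day 3 to day 7 (log2 change 0.14 ± 0.08 (SE), edgeR adjusted p = 0.314). All 12 genes for CDK1, its cyclins and regulators and all 10 kinesins tested had negative values between day 3 and day 7, of which 2 and 1 were called. Some of these values were near 0, such as those of KIFC1 (-0.004), CCNA2 (-0.02) and KIF11 (-0.03). Other roles held genes with positive values, such as CDC20, AURKB (0.05) and ANLN (0.06), and none of those was called.

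**Figure D4:**
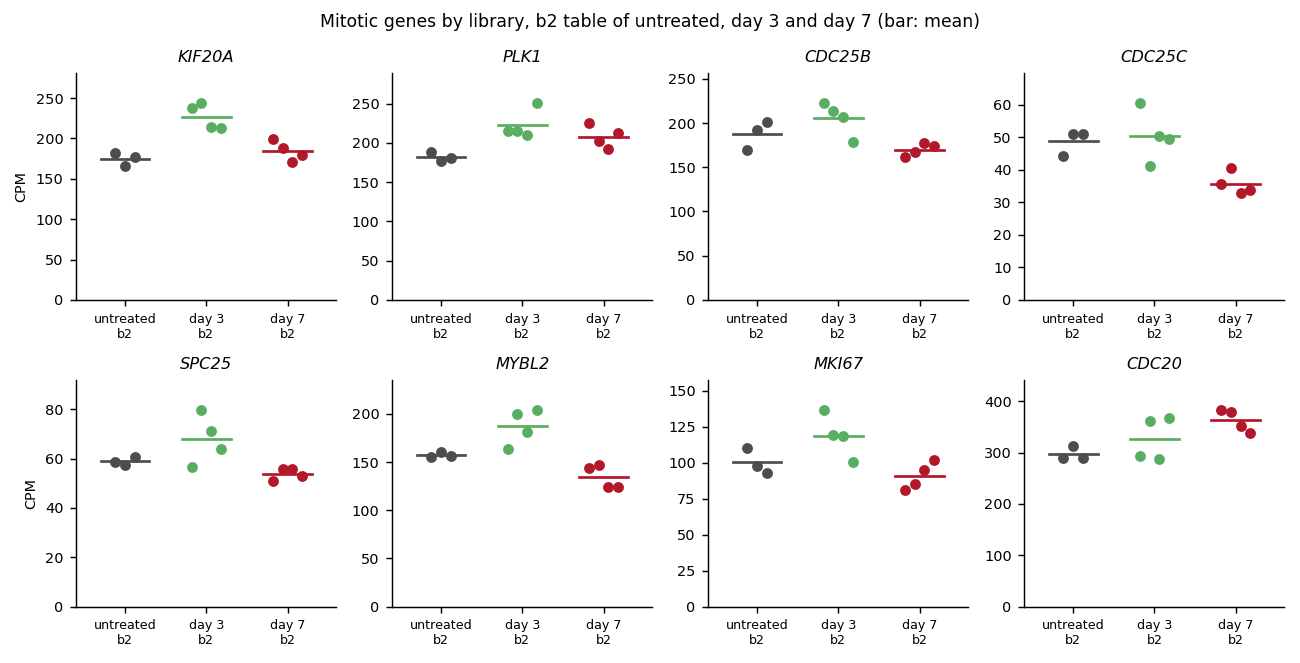
CPM per library (y axis, from 0) of 8 genes in untreated, day 3 and day 7 libraries of b2 (x axis), from the table that holds day 3; each point is 1 library and each bar the mean of its group. KIF20A and PLK1 lie above untreated at day 3, and MYBL2 and CDC25C at day 7 lie below both other groups.

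The untreated libraries of b2 and b1 differed in 11 of 57 genes as higher in b2 (19.3%, against 23.4% of all genes tested) and 12 as lower (21.1%, against 23.2%), which is near the share of all genes. Of the 6 higher genes with the smallest p, NUSAP1 had a log2 difference of 2.26 ± 0.18, ANLN of 1.17 ± 0.11, MKI67 of 0.98 ± 0.11, PRC1 of 0.74 ± 0.08, CKS1B of 0.74 ± 0.10 and BUB1B of 0.71 ± 0.11. Of the 6 lower ones, AURKB stood at 439, 497 and 516 CPM in untreated b1 and 279, 264 and 293 in untreated b2 (-0.80 ± 0.08). ASPM (-1.02 ± 0.23), ESPL1 (-0.67 ± 0.12), CDC25C (-0.50 ± 0.11) and CDC25B (-0.44 ± 0.09) were also lower. The largest edgeR adjusted p among these 11 was 0.000724, that of ASPM. The checkpoint kinase TTK had 39 UMIs in the 3 untreated b1 libraries and 3 in the 3 untreated b2 libraries, a ratio of 0.0693 with an exact interval of 0.0137 to 0.218 that covers counting error only.

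The 2 tables count 7 b2 libraries that they share differently, and for some mitotic genes the difference was large. Per UMI of the table of untreated and day 7 libraries, the other table held 0.192 for TOP2A, 0.363 for MKI67, 0.386 for HMMR, 0.590 for DLGAP5, 0.615 for ANLN and 0.620 for ECT2, and 1.91 for NUSAP1 and 1.21 for PRC1. Over the 56 genes of the list in both tables the median was 0.961, and these 6 lay under 0.667. Over all 9394 genes with an average of at least 20 UMIs a library the median was 0.944, and 25.3% lay under 0.667. The sources used here do not say how each table was counted, and levels are not compared across tables.

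This matters for MKI67. Its day 7 change in b2 was -0.46 ± 0.10 on the first table's counts and -0.14 ± 0.10 on the other's (edgeR adjusted p = 0.373). NUSAP1 had -0.51 ± 0.14 and -0.27 ± 0.08, and PRC1 -0.24 ± 0.07 and -0.04 ± 0.08. Of the genes that differed between batches, ANLN had -0.33 ± 0.10 and -0.11 ± 0.14 (edgeR adjusted p = 0.0222 and 0.655). TOP2A had -0.21 ± 0.11 and 0.10 ± 0.18, and BUB1B -0.17 ± 0.10 and 0.02 ± 0.12, values of opposite sign that did not pass with either count. The median absolute difference over 55 genes was 0.03, and it was over 0.2 for 6 of them. Within b2, KIF14, KIF23, CCNB2, CDC25C, WEE1, CENPA and NUSAP1 were called lower and CDC20 higher with either count. With the other table's counts, 7.31% of all genes tested were called lower within b2 and 8.27% higher.

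CKS2, HMMR and PTTG1 differed widely between libraries of the same group, a pattern chosen after their values were seen. CKS2, a small subunit that binds CDK1, stood at 132, 52.4 and 12.1 CPM untreated, 276, 92.2, 14.8 and 11.4 at day 3 and 121, 137, 41.5 and 41 at day 7, a 24.2-fold range among b2 libraries. Its standard deviation within groups was 1.67 on the log2 scale, the highest of 6267 genes at 20 CPM or more, whose median was 0.14. HMMR, a spindle microtubule protein, stood at 19.6, 10.2 and 3.03 CPM untreated, 20.8, 19.3, 3.14 and 2.36 at day 3 and 15.5, 14.9, 9.31 and 9.87 at day 7, and PTTG1 at 474, 418 and 303 CPM untreated, 519.5, 407, 342 and 362 at day 3 and 427, 451, 342 and 352 at day 7. The libraries low in CKS2 (b2-4, b2-11 and b2-12) were also the lowest in HMMR, while CCNB1 stayed between 378 and 463 CPM. Across the 11 b2 libraries, after subtracting group means, the Pearson correlation of log2 CPM with CKS2 was 0.96 for HMMR, 0.94 for PTTG1, 0.86 for CENPE, 0.85 for CDK1, 0.80 for NDC80 and 0.70 for both PRC1 and KIF20A. It was 0.27 for CCNB1 and -0.13 for PLK1. Many genes of the list had negative values, the lowest being KIF11 (-0.67), KIF18B (-0.65) and BUB1B (-0.64), so the list did not vary with CKS2 as a whole. The points share 1 batch and differ in depth, and the values are a description. KIF20A is one of the 2 genes called at day 3, and the part of this library pattern in that call was not tested. No day 3 or day 7 difference passed the test for these 3 genes, and their standard errors were up to 1.1 on the log2 scale (CKS2).

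**Figure D5:**
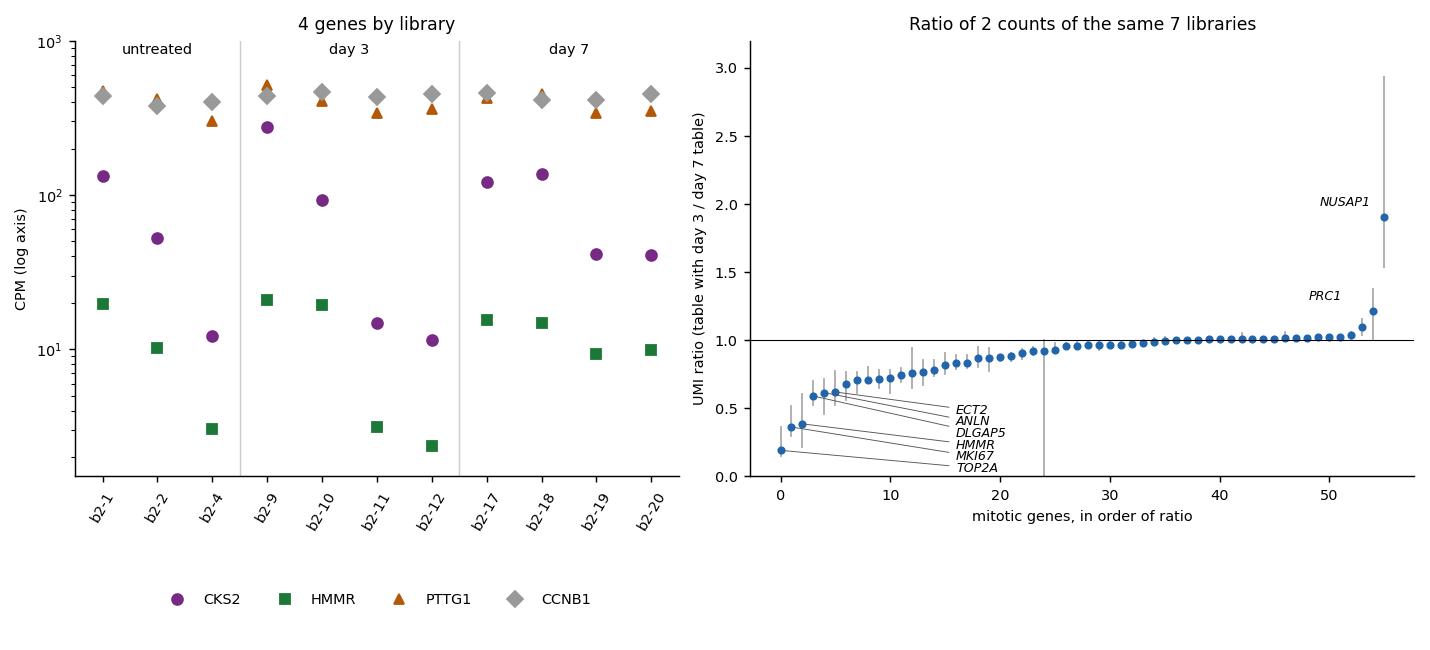
Left, CPM (y axis, log scale) of CKS2, HMMR, PTTG1 and CCNB1 in each b2 library (x axis); CKS2 spans 11.4 to 276 CPM across groups and CCNB1 378 to 463. Right, UMIs in the table with day 3 divided by those in the table of untreated and day 7 libraries for the 7 shared libraries, 1 point for each of 56 genes in order of ratio with the range over libraries as a line, from TOP2A (0.192) to NUSAP1 (1.91); the line that reaches 0 is that of TTK, which had few UMIs.

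Other genes of cell division were read from 8 lists of 167 genes. The shares of all genes called at day 7, 7.28% lower and 8.43% higher, are the background for these counts, and several lists with 1 or 2 calls lie near them. At day 7, condensin and cohesin had 6 of 19 lower and none higher, with the cohesin subunits SMC1A (log2 change -0.48 ± 0.10 (SE), edgeR adjusted p = 0.00259) and SMC3 (-0.52) among them, beside RAD21, PDS5A, SGO1 and NCAPD2. Other spindle genes had 5 of 21 lower (KIF15 at -0.58, CKAP2, PSRC1, CIT and TROAP) and 1 higher, the tubulin TUBA1C (0.46 ± 0.06 (SE), edgeR adjusted p = 2.11e-05). DNA replication and G1/S genes had 4 of 32 lower (thymidine kinase TK1 at -0.33, CDT1, CDK2 and RFC4) and 2 higher (cyclin D1, CCND1, at 0.30, and CDK4). In DREAM, RB and CDK inhibitors 2 of 17 rose and 2 fell, the p21 gene CDKN1A (0.33 ± 0.07 (SE), edgeR adjusted p = 0.00250) and E2F4 being higher and CDKN2C (-0.35) and CDKN1B lower. The APC/C core had 1 of 16 higher (ANAPC15, 0.48) and none lower, other kinetochore genes 1 of 25 higher (ZWINT, 0.22) and 2 lower (CENPU, -0.30, and CENPH), and kinesins outside mitosis 1 of 20 higher (KIF21B, 0.62) and 2 lower (KIF3C, -0.49, and KIF5A). Of 11 PP1, PP2A and Greatwall genes none was called by edgeR or limma-voom and 1 by DESeq2, and 1 had an unadjusted edgeR p under 0.05.

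From day 3 to day 7, where 2.31% of all genes were called lower and 2.76% higher, 3 genes of the 8 lists rose and 6 fell. CCND1 rose (log2 change 0.56 ± 0.07 (SE), edgeR adjusted p = 4.71e-06), and CDKN1A rose (0.36 ± 0.07 (SE), edgeR adjusted p = 0.00244), as did CDK6, while the inhibitors CDKN1B (-0.47) and CDKN2C and thymidine kinase TK1 (-0.35) fell. SMC1A (-0.64), the centromere chaperone HJURP (-0.32) and the kinetochore gene CENPH (-0.27) fell as well. The APC/C core, other spindle genes, kinesins outside mitosis and PP1, PP2A and Greatwall genes had no call in this comparison by edgeR, DESeq2 or limma-voom, with 1 to 5 genes a list at an unadjusted edgeR p under 0.05. At day 3, where 1.67% of all genes tested were called lower and 1.84% higher, the 8 lists together held 1 call by edgeR. It was a lower gene among the 18 DREAM, RB and CDK inhibitor genes tested.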

How the data were processed

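The files hold UMI counts per gene, deposited by the authors in 2 tables: one of untreated and day 7 libraries of both batches, one of b2 libraries that adds day 3. The submitters' processing notes name bcl2fastq, cutadapt, STAR 2.4.2a, HTSeq, DESeq2 and hg38. Counts were used as deposited, and 55 other per-sample columns were not used. Column names with b2 or a unique number gave the sample directly. The names of 2 untreated columns in the table with day 3 also match b1 samples, and these were taken as b2 like the rest of that table.

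Genes passing edgeR's expression filter were tested with edgeR 4.0.16 in R 4.3.3 (TMM scaling, quasi-likelihood test, Benjamini-Hochberg adjustment over all genes tested, called under 0.05). The day 7 comparison had batch as a term over 11 libraries. The batch difference and the interaction came from the means of the 4 groups, and the day 3 comparisons from the 3 groups of the other table. CPM values use the same scaling. DESeq2 1.42.0, limma 3.58.1, other scalings and filters, and leaving out each library were alternatives. The steps were also run on simulated counts with the same dispersion for every gene. Spread differed between genes in these data, so that run does not give the rate of false calls here. Gene positions were read from GENCODE 29 (GRCh38) and promoters from RefSeq.

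The genes and lists were chosen with earlier results of these data known. Values are given library by library for genes called with doxycycline, for CDK1, CCNB1, MKI67, TOP2A, BUB1B and KIF11, and for genes whose batch effects differed. In the batch comparison the 6 called genes with the smallest p in each direction are named. Of each companion list the values of at most 2 called genes with the smallest p are given, and the other called genes were named after their values were seen. No pair of replicate libraries agreed within sampling noise (chi-square per degree of freedom 1.59 to 7.06). Intervals on counts cover counting error only.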

Additional observations from a re-analysis of the deposited data

Results flagged for a closer look

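The day 7 change differed between the batches for 5 genes, tested as an interaction with edgeR. The difference, b2 minus b1 on the log2 scale, was 1.52 for ANLN (adjusted p = 0.000934), 1.24 for TOP2A (0.0151), 0.97 for BUB1B (0.0305), 0.86 for BUB1 (0.00729) and 0.80 for RACGAP1 (0.0447). In b1 the value rests on 1 day 7 library, b1-13.

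In 2 groups of 4 libraries 1 library stood apart from the rest. CENPF was at 202 CPM in the day 7 library b2-20, where the nearest other day 7 library of b2 was at 223. PLK1 was at 251 CPM in the day 3 library b2-12, where the nearest other was at 216. Chance sets such a library apart in about 1 in 20 groups, and 62 groups were examined.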

How the results depend on the processing

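The day 7 comparison called 1955 genes, and 316 with no batch term. Of the 57 genes, 2 were higher: 1 with library size alone, an adjusted p under 0.01, the b2 libraries alone or the other table's b2 counts, 0 with no batch term, and 1 to 2 with 1 library left out (1 without b1-13). The 12 lower were 4 at an adjusted p under 0.01, 1 with no batch term, 7 with b2 alone or the other table's counts, and 7 to 12 with 1 library left out. At day 3, 372 genes were called, 191 to 578 with 1 library left out and 40 without the 2 untreated libraries whose column names also match b1, an alternative chosen after seeing the data. The 2 higher mitotic genes were 1 at under 0.01, 1 to 3 with 1 library left out and 0 without those 2 libraries. From day 3 to day 7 the 6 lower were 3 at under 0.01 and 10 at under 0.1. The interaction called 329 genes, 154 with limma-voom and 197 to 684 with 1 library left out. Its 5 genes were 3 with DESeq2, 2 with limma-voom, 8 with library size alone, 2 at under 0.01 and 3 to 6 with 1 library left out. In the other direction 0 became 2 with RLE size factors or at under 0.1, and 0 to 2 with 1 library left out. The causes were not tested.

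Among other values, 1464 were the same, 108 no longer passed, 10 came to pass, 34 moved and 0 reversed. A called gene was the same if it kept its direction and its call. A gene called in neither fit was the same if it stayed within the standard error of the main value, and moved otherwise. Its direction was not checked, so the 0 covers only genes called in the main fit or the alternative. For untreated b2 against untreated b1 in the untreated libraries alone, the replicate block (library numbers shared by b1 and b2) called 5147 genes, against 6061 without it (also chosen after seeing the data) and 5806 in the fit of all 4 groups, and 12 of the 57 in each direction. The labels do not say that a number pairs cultures, and the block changed no direction. The interaction could not be run without b1-13, the only day 7 library of b1.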

Other observations

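The spread of CKS2 and HMMR among b2 libraries was also seen in genes outside mitosis, chosen after their values were seen. In the table with day 3, the antigen-presentation gene B2M stood at 546, 379.8 and 172 CPM in the untreated libraries b2-1, b2-2 and b2-4, at 693, 384, 236 and 222 in the day 3 libraries b2-9 to b2-12, and at 367, 388, 257 and 219 in the day 7 libraries b2-17 to b2-20. The respiratory chain gene COX7A2 stood at 88.1, 50.4 and 19.9 CPM untreated, 139, 67.1, 34.6 and 29.1 at day 3 and 97.4, 88.7, 47.8 and 41.8 at day 7. The ribosomal protein gene RPL9 ran from 187 CPM in b2-4 to 1035 in b2-9. In each of these genes b2-9 was the highest of the 11 libraries and b2-4 the lowest, and in CKS2 b2-9 was the highest and b2-12 the lowest. The part of these library differences in the comparisons was not tested.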
